A study of Mus musculus with 8 samples.

Results

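A set of 10 cell-surface receptors outside the chemokine family was followed in sorted mouse CD4+ T cells: 9 of them are G protein-coupled receptors and 1, P2rx7, is an ion channel gated by extracellular ATP. They were listed by name (Gpr83, Gpr171, Gpr34, Gpr183, Gpr65, Gpr15, Ptger4, Vipr1, Adora2a and P2rx7), and every probe set that the platform annotation assigns to exactly 1 of these symbols was taken. This gave 15 of the 45037 probe sets tested. They represent 9 of the 10 receptors, 5 of them by more than 1 probe set, while the annotation used here named no probe set for Adora2a, an adenosine receptor that raises cyclic AMP, so Adora2a was not analysed here. The receptors were chosen by their log2 levels in the 4 groups, with earlier results of these arrays in view. The differences of the members are therefore given as a description, without p-values. Where a member is said below to pass the threshold, that call uses the values that chose it and is a description too. No filter on low values was applied, so all 15 probe sets are reported.

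The samples were CD4+ T cells sorted by fluorescence from mice that carry an allele of Foxp3, the X-linked gene for the master transcription factor of regulatory T cells, with a fluorescent tag, enhanced green fluorescent protein (EGFP). The 4 groups were hybridised, 1 Affymetrix array a sample: delta EGFP-positive (the mutant allele called delta in the labels, n = 3), WT EGFP-positive (the wild-type allele, n = 3), delta EGFP-negative (n = 1) and WT EGFP-negative (n = 1). All groups share the EGFP tag on the allele, and the design text gives hemizygous males as the source of the EGFP-positive cells. The sources used here do not give strain, age, organ, pooling of animals or what the delta allele lacks. They also do not tell separate animals from repeat samples, so the spread behind every p-value is that among these arrays and could be technical.

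Median intensity lay between 53.3 and 54.7 on the 8 arrays, and log2 values correlated across probe sets at 0.9879 to 0.9912 within delta EGFP-positive, at 0.98 to 0.9918 within WT EGFP-positive, and at 0.9601 to 0.9688 between those groups. The Foxp3 probe set stood at 11.1, 11.51 and 11.21 log2 intensity on the delta EGFP-positive arrays, at 4.75, 4.86 and 4.64 on the WT EGFP-positive arrays, at 6.14 in delta EGFP-negative and at 4.52 in WT EGFP-negative cells. Its low reading on the arrays labelled WT EGFP-positive goes against that label, and the sources used here do not place the probe set on either allele. Every direction between alleles below therefore rests on the labels. The other 5 regulatory T cell markers measured (Il2ra, Ikzf2, Ctla4, Tnfrsf18 and Nrp1) were higher on every EGFP-positive array than on the EGFP-negative array of the same allele. Ikzf2, for example, stood at 12.09 to 12.12 in delta EGFP-positive and at 12.09 to 12.26 in WT EGFP-positive cells, against 11.48 in delta EGFP-negative and 7.98 in WT EGFP-negative cells. All 5 also read higher in delta than in WT EGFP-negative cells, as with Ctla4 (9.26 against 6.09) and Il2ra (7.47 against 5.38). Differences within delta, and the interaction, thus rest on a single EGFP-negative array with more of these transcripts. The cause was not tested. Each of the 6 measured T cell genes (Cd3d, Cd3e, Cd3g, Cd4, Cd5 and Cd28) stood at 10.69 or above on every array. Immediate-early and heat shock genes split the replicates: the mean log2 level of 16 such genes was 10.03, 10.03 and 8.77 in delta EGFP-positive replicates 1 to 3, and 11.04, 9.96 and 11.04 in WT EGFP-positive replicates 1 to 3. By that mean, WT EGFP-positive replicate 2 and delta EGFP-positive replicate 3 stood apart, and values without them are given where they matter. The heat shock genes Hspa1a, Hspa1b, Dnaja1 and Dnajb1 were instead highest of the WT EGFP-positive group in replicate 2. Hsp90aa1 was lowest there, at 12.09 against 12.5 and 12.44.

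G protein-coupled receptors cross the membrane in 7 helices and pass a signal to heterotrimeric G proteins. Those coupled to Gs raise cyclic AMP, which restrains T cell activation, and those coupled to Gi lower it. The list covers peptide receptors (Gpr83, for which the neuropeptide PEN has been proposed as ligand, Gpr171, for which the neuropeptide BigLEN has, and Vipr1, which binds vasoactive intestinal peptide), lipid receptors (Gpr34 for lysophosphatidylserine, Gpr183 for oxysterols, Ptger4 for prostaglandin E), the proton sensor Gpr65, and Gpr15, which guides T cells to the large intestine. Gpr83 is a widely used transcript marker of mouse regulatory T cells. P2rx7 opens a cation channel when ATP is released by damaged cells, and in mouse T cells prolonged opening leads to shedding of surface proteins and cell death.

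Promoter windows from RefSeq (GRCm38.p6, 250 bases before and 50 after the annotated start) were at hand for 7 of the 10 receptors, in 8 windows. None was at hand for Gpr34, Gpr171 or Adora2a. Of the receptors with a window, 3 with clear patterns below are printed. These are Gpr83 and Gpr15, both high in WT EGFP-positive cells, and Vipr1, low in EGFP-positive cells. Each runs 5′ to 3′ on the strand of its gene. Capitals mark motif matches on either strand. One motif is TGTTT, the core of the sequence read by forkhead factors, the family that includes Foxp3. Another motif is TGACG, part of the response element through which cyclic AMP acts on transcription. The last motif is TATAAA, the sequence of the TATA box, whose match at Gpr83 begins 1 base before the annotated start.
Gpr83, chr9:14859960-14860259, + strand: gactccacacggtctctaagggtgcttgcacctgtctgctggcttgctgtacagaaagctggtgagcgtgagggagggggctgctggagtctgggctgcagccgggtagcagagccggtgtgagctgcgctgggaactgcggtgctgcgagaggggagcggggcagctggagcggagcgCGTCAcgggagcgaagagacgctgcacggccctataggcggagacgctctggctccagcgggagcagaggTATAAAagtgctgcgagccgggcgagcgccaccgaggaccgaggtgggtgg
Gpr15, chr16:58718823-58719122, - strand: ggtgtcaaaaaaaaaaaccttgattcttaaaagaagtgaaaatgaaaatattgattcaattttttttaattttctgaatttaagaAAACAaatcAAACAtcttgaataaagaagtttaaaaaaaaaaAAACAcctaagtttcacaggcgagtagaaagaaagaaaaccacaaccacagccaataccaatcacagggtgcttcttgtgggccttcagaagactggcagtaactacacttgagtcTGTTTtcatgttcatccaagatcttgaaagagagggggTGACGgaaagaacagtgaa
Vipr1, chr9:121642466-121642765, + strand: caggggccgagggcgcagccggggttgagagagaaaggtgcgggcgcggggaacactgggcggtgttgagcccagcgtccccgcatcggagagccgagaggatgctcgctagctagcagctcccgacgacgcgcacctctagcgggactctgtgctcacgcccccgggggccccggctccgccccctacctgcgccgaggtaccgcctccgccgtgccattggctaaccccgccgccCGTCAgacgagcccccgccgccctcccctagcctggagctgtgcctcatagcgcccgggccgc
The windows differ in base composition: 67% of bases were G or C at Gpr83 and 73.7% at Vipr1, against 33.7% at Gpr15. The longer forkhead motif TGTTTAC, which contains TGTTT, was in 0 of the 8 member windows and in 3.65% of all 32851 windows of this length. TGTTT was in 4 of the 8 member windows and in 50.5% of all windows, with 4 matches at Gpr15 and none at Gpr83 or Vipr1. TGACG was in 3 of 8 (Gpr83, Gpr15 and Vipr1) and in 20.8% of all windows, and TATAAA in 2 of 8 (Gpr83 and Gpr65) and in 13.6% of all. These matches describe letters in a window and say nothing about binding.

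In EGFP-positive cells, 3 receptors were lower and 1 was higher with the delta allele. Gpr83, Gpr34 and Gpr15 were lower by about 2 to 3 log2 units on arrays that did not overlap, Gpr171 was higher by about 2, and Gpr183, Gpr65, Ptger4, P2rx7 and Vipr1 differed by less than 0.6. Of the 15 member probe sets 5 passed the threshold (limma, adjusted p under 0.05 over all probe sets), 1 higher and 4 lower, beside 12.7% of all probe sets (7.35% higher, 5.39% lower). Since these values chose the members, nothing is read from that count. The arrays of the groups did not overlap for 7 of the 15, beside 29% of all probe sets. The median size of the difference was 0.42 over the 9 receptors (1 probe set each, that with the highest mean) and 0.18 over all 18193 genes. For the same reason nothing is read from these shares and medians.

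Gpr83, the regulatory T cell marker, stood at 9.68, 9.46 and 10.22 on the delta EGFP-positive arrays, against 11.42, 12.24 and 11.5 on the WT EGFP-positive arrays. Its level was 9.23 in delta EGFP-negative and 8.54 in WT EGFP-negative cells. The delta EGFP-positive arrays all lay below the WT EGFP-positive arrays, and WT EGFP-positive replicate 2 was the highest of all. The delta EGFP-positive mean of 9.78 ± 0.39 was 3.82-fold below the WT EGFP-positive mean of 11.72 ± 0.45 (SD, n = 3 each; log2 difference -1.93, SE 0.27). The other probe set of Gpr83 gave -1.99 (SE 0.31). Against the EGFP-negative cells of the same allele, Gpr83 was higher by 0.55 (SE 0.38) in delta EGFP-positive and by 3.18 (SE 0.38), or 9.04-fold, in WT EGFP-positive cells; with the other probe set these values were 0.49 and 2.67. The levels therefore ran, from high to low, WT EGFP-positive, delta EGFP-positive, delta EGFP-negative and WT EGFP-negative. The middle neighbours in that order, delta EGFP-positive and delta EGFP-negative, differed by less than 2 SE. The order of the EGFP-negative groups rests on 1 array each, and the other probe set gave a closer 8.74 for delta and 8.56 for WT.

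Gpr171, the other receptor with a proposed peptide ligand, ran the opposite way. It stood at 8.63, 8.49 and 8.51 on the delta EGFP-positive arrays, against 6.48, 6.66 and 6.56 on the WT EGFP-positive arrays. The single arrays gave 7.94 in delta EGFP-negative and 8.11 in WT EGFP-negative cells. Replicates were tighter than for any other receptor that differed, with SDs of 0.07 for delta EGFP-positive and 0.09 for WT EGFP-positive, and the groups lay 3.93-fold apart (difference 1.98, SE 0.11). Relative to EGFP-negative cells of the same allele, Gpr171 was 0.6 higher (SE 0.15) in delta EGFP-positive and 1.54 lower (difference -1.54, SE 0.15; 2.91-fold) in WT EGFP-positive cells. The WT EGFP-positive arrays were thus the low group, and the other groups spanned 7.94 to 8.63. The difference between these 2 EGFP differences was 2.14 (SE 0.22), the only member call of the interaction, where 0.04% of all probe sets passed. That call was lost without any 1 of the delta EGFP-positive replicates and without WT EGFP-positive replicate 1 or 3.

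**Figure D1:**
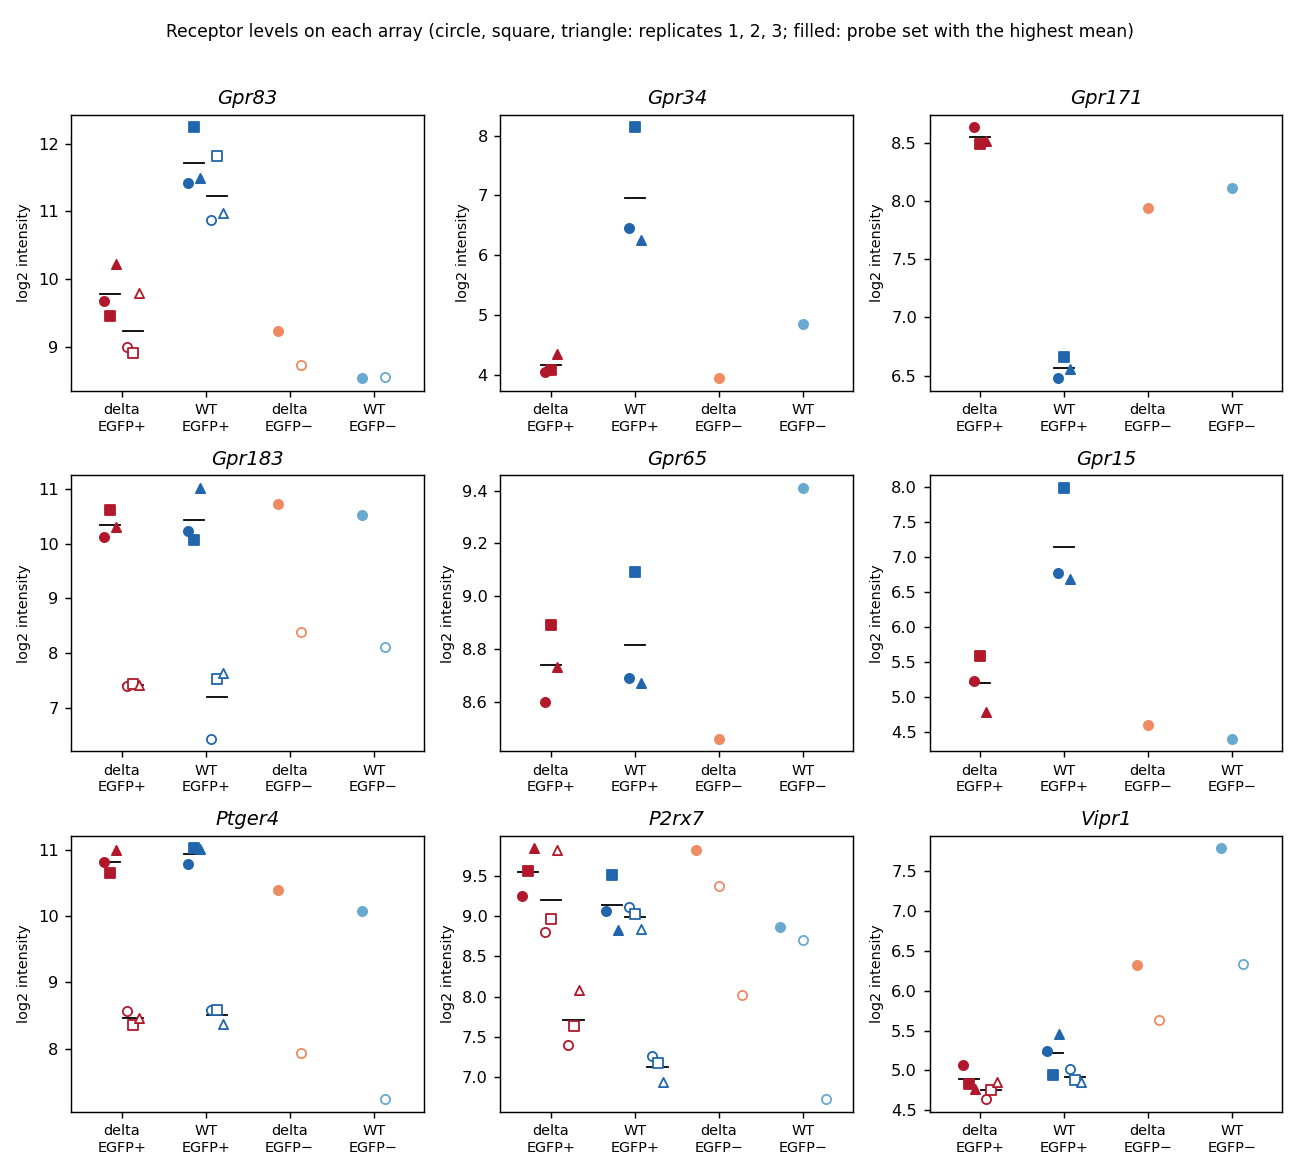
Log2 intensity (y axis) of the 9 measured receptors on each of the 8 arrays, by group (x axis); filled symbols are the brightest probe set of a gene, open symbols further probe sets, and horizontal lines the means of 3 arrays. Gpr83, Gpr34 and Gpr15 peak in WT EGFP-positive cells, with replicate 2 (square) highest, Gpr171 is lowest there, and Vipr1 is highest in EGFP-negative cells.

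Gpr34, the lysophosphatidylserine receptor, was at 4.04, 4.07 and 4.35 on the delta EGFP-positive arrays, against 6.45, 8.14 and 6.26 on the WT EGFP-positive arrays. Delta EGFP-negative cells gave 3.94 and WT EGFP-negative cells 4.85. Only the WT EGFP-positive arrays were above 5.76, the median of all probe set means, so no fold change is given. The difference of -2.8 (SE 0.45) between alleles in EGFP-positive cells was -2.2 without WT EGFP-positive replicate 2. Against WT EGFP-negative cells the WT EGFP-positive arrays were 2.09 higher (SE 0.63), and 1.5 higher without that replicate. Gpr34 did not pass the threshold in that comparison with all arrays but did without replicate 2. Its SD among WT EGFP-positive replicates was 1.03. Gpr34 is also known from macrophages and microglia, so myeloid transcripts were read beside it. Their summed intensity (8 genes) was 771, 613 and 577 in delta EGFP-positive and 771, 454 and 1640 in WT EGFP-positive cells, 884 in delta EGFP-negative and 495 in WT EGFP-negative cells. The WT EGFP-positive arrays thus held both the smallest sum, in replicate 2 with the most Gpr34, and the largest, in replicate 3. Of the defining macrophage genes, Csf1r stood at 7.13, 6.57 and 5.88 in delta EGFP-positive and at 8.36, 6.81 and 9.85 in WT EGFP-positive cells, 5.74 in delta EGFP-negative and 6.16 in WT EGFP-negative cells. Its mean was thus higher in WT than in delta EGFP-positive cells, with replicate 2 the lowest of the WT arrays. The means of Cd14, Itgam, Adgre1 and Fcgr3 were also higher in WT. Those of Lyz2 (6.31 in delta against 5.81 in WT EGFP-positive cells), Cd68 (6.87 against 6.17) and Mpeg1 (7.43 against 6.85) were lower in WT. Lyz2 stood at 5.47 to 6.58 over all arrays, and none of the 8 genes passed between delta and WT EGFP-positive cells. The part of myeloid transcripts in the Gpr34 levels was not tested.

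Gpr15, the large intestine homing receptor, was at 5.22, 5.58 and 4.78 on the delta EGFP-positive arrays, against 6.77, 7.99 and 6.68 on the WT EGFP-positive arrays. The EGFP-negative arrays gave 4.6 for delta and 4.4 for WT. As for Gpr83 and Gpr34, the WT EGFP-positive arrays did not overlap any other array and replicate 2 was the highest. The delta EGFP-positive group was lower by 1.96 on the log2 scale (difference -1.96, SE 0.36). Without WT EGFP-positive replicate 2 and delta EGFP-positive replicate 3 the difference was -1.33. WT EGFP-positive cells were 2.75 (SE 0.51) above WT EGFP-negative cells, and delta EGFP-positive cells 0.6 (SE 0.51) above delta EGFP-negative cells. Gpr15 passed the threshold of the WT comparison only without WT EGFP-positive replicate 2, alone or together with delta EGFP-positive replicate 3.

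The shared high value of WT EGFP-positive replicate 2 was 0.52 above its group mean for Gpr83, 1.19 for Gpr34 and 0.84 for Gpr15, against 0.09 for Gpr171. The same array had the lowest mean of its group over the 16 immediate-early and heat shock genes. Its Hspa1b, at 10.75, was instead the highest of the group (9.11 and 7.74 on the others), as were its Hspa1a, Dnaja1 and Dnajb1, while its Hsp90aa1 was the lowest. The part of such genes in these 3 receptor levels was not tested. Directions were kept for all 3 receptors without WT EGFP-positive replicate 2, as the values with each array left out show.

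**Figure D2:**
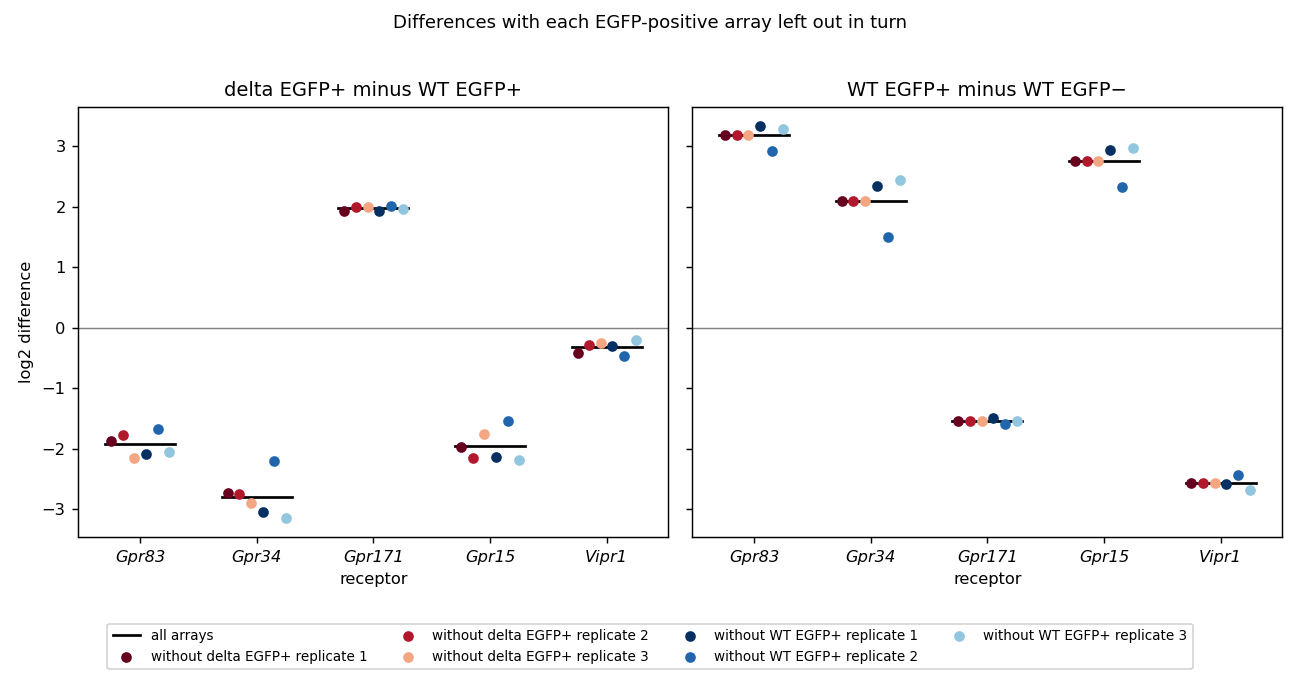
Log2 differences (y axis) of 5 receptors, each by its brightest probe set, for delta EGFP-positive minus WT EGFP-positive cells (left) and WT EGFP-positive minus WT EGFP-negative cells (right); black lines are the values with all arrays and dots those with 1 EGFP-positive array left out. All signs are kept, and leaving out WT EGFP-positive replicate 2 moves Gpr34 to -2.2 on the left and to 1.5 on the right.

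Vipr1, the vasoactive intestinal peptide receptor, which resting T cells are known to express, was lower in EGFP-positive than in EGFP-negative cells of both alleles. Its probe set with the higher mean stood at 5.07, 4.83 and 4.77 on the delta EGFP-positive arrays and at 5.24, 4.94 and 5.46 on the WT EGFP-positive arrays, against 6.32 in delta EGFP-negative and 7.78 in WT EGFP-negative cells. The EGFP-positive arrays of the alleles overlapped (difference -0.32, SE 0.16), and both groups lay below 5.76, the median of all probe set means. Relative to EGFP-negative cells, delta EGFP-positive cells differed by -1.43 (SE 0.22) and WT EGFP-positive cells by -2.56 (SE 0.22). The second Vipr1 probe set gave -0.88 and -1.41. The WT difference passed the threshold with both probe sets, a description since these levels chose the members. For delta, no member probe set passed (0 of 15, beside 0.0755% of all probe sets; 4381 probe sets had an unadjusted p under 0.05), and Vipr1 did so without WT EGFP-positive replicate 2. In these bulk samples, fewer cells with a transcript and less of it per cell cannot be told apart.

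Ptger4, the prostaglandin E receptor that couples to Gs, was close between the alleles and higher in the EGFP-positive gate. It stood at 10.82, 10.65 and 10.99 in delta EGFP-positive and at 10.78, 11.02 and 11.01 in WT EGFP-positive cells, against 10.39 in delta EGFP-negative and 10.07 in WT EGFP-negative cells. Every EGFP-positive array was above both EGFP-negative arrays, by 0.44 (SE 0.19) within delta and by 0.86 (SE 0.19) within WT. The dimmer probe set differed by 0.52 within delta and by 1.28 (2.42-fold) within WT, where it passed the threshold. Between delta and WT EGFP-positive cells the 2 probe sets differed by -0.11 and -0.05, each less than its SE (0.13 and 0.12).

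Gpr183, the oxysterol receptor that positions lymphocytes in lymphoid organs, overlapped between the alleles. Its brighter probe set read 10.12, 10.61 and 10.31 in delta EGFP-positive and 10.23, 10.06 and 11.02 in WT EGFP-positive cells, beside 10.72 in delta EGFP-negative and 10.52 in WT EGFP-negative cells. The dimmer one was lower in EGFP-positive cells of both alleles, by 0.97 within delta and by 0.91 within WT (differences -0.97 and -0.91, SE 0.42 each). The brighter probe set differed by -0.37 within delta and by -0.08 (SE 0.36) within WT, where the arrays overlapped and the value ran from -0.38 to 0.1 over the alternatives, so it gave no direction there. WT EGFP-positive replicate 1 carried much of the WT value of the dimmer probe set, which was -0.53 without it. Gpr65, the proton sensor, stood at 8.6, 8.89 and 8.73 in delta EGFP-positive and at 8.69, 9.09 and 8.67 in WT EGFP-positive cells, beside 8.46 in delta EGFP-negative and 9.41 in WT EGFP-negative cells. Its EGFP-positive groups overlapped (difference -0.08, SE 0.15), and the widest gap was between the 2 single EGFP-negative arrays.

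P2rx7, the ATP-gated channel, was read by 3 probe sets. The brightest gave 9.25, 9.56 and 9.84 in delta EGFP-positive and 9.07, 9.51 and 8.83 in WT EGFP-positive cells, against 9.82 in delta EGFP-negative and 8.86 in WT EGFP-negative cells. Between delta and WT EGFP-positive cells the 3 probe sets differed by 0.42, 0.58 and 0.2 (SE 0.21, 0.19 and 0.25), and none passed the threshold. The arrays did not overlap only for the probe set at 0.58. Delta EGFP-positive replicate 3 was the highest of its group with all 3, and without it the last difference was -0.11. The single arrays of EGFP-negative cells differed more: delta was above WT by 0.96, 1.29 and 0.67, each larger in size than the difference of at least 89.7% of probe sets between these 2 arrays. With 1 array each, that difference has no replicate check.

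**Figure D3:**
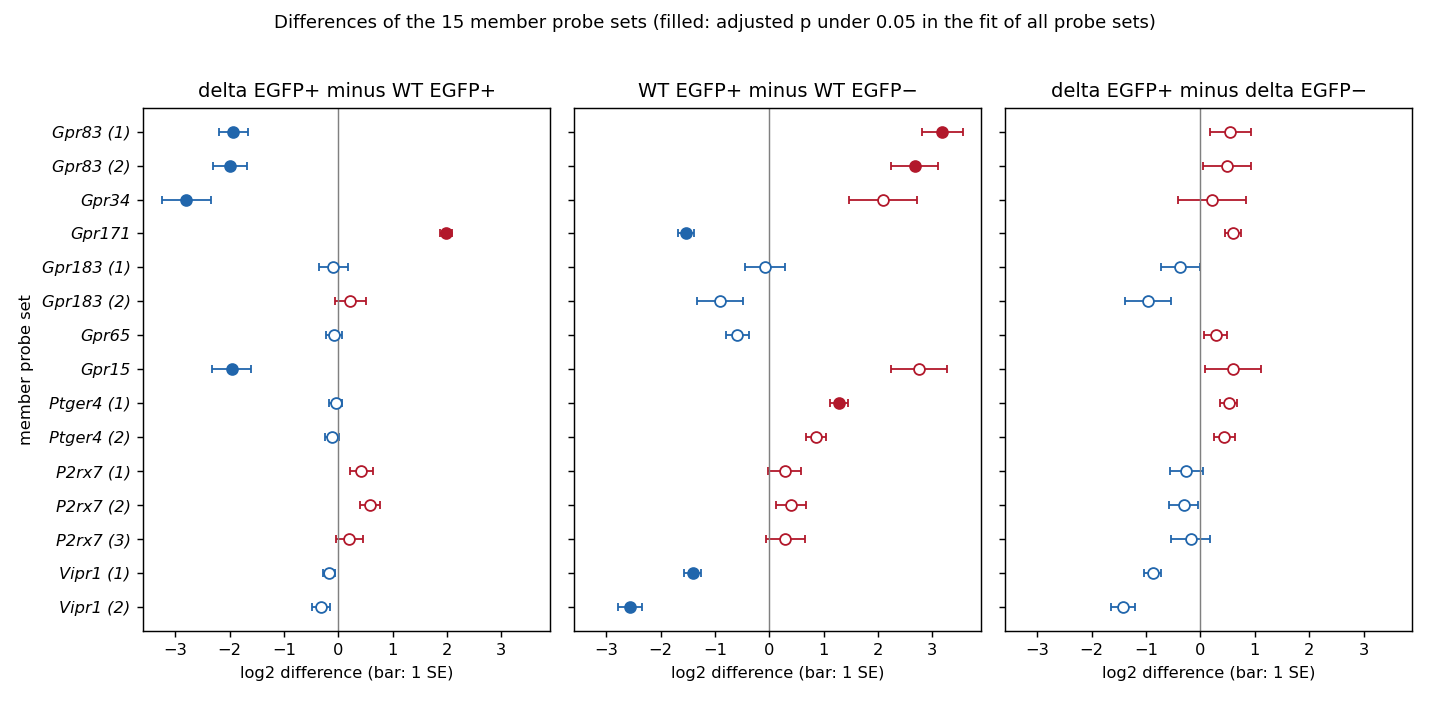
Log2 differences (x axis, bars 1 SE of the fit) of the 15 member probe sets (y axis) in 3 comparisons; filled points passed the threshold over all 45037 probe sets. Gpr83, Gpr34 and Gpr15 are lower and Gpr171 higher in delta than in WT EGFP-positive cells, and 6 probe sets in the middle panel and 0 in the right panel passed.

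Between WT EGFP-positive and WT EGFP-negative cells, 6 of the 15 member probe sets passed, 3 higher (both of Gpr83 and 1 of Ptger4) and 3 lower (Gpr171 and both of Vipr1), beside 1.1% of all probe sets (0.706% higher, 0.395% lower), a count from which nothing is read for the same reason. The arrays did not overlap for 13 of the 15, beside 53% of all probe sets, and within the delta allele for 12 of the 15, beside 57.4%. Nothing is read from these counts either. The second probe set of Gpr83 lost its call without delta EGFP-positive replicate 1 or 2 and without WT EGFP-positive replicate 1 or 3, while the first kept it without any 1 array. In a fit with the number runs of the sample titles as a replicate block, the first lost its call too. The 3 comparisons share arrays, so their member values stand side by side and are not independent. Between the single EGFP-negative arrays Vipr1 was lower in delta by 1.46 (6.32 against 7.78 in WT) and Gpr34 by 0.91 (3.94 against 4.85 in WT), and Gpr83 was higher by 0.69. The other probe sets gave a smaller -0.7 for Vipr1 and 0.19 for Gpr83.

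Several genes had profiles close to those of the receptors that spanned over 2 log2 units across arrays. Closeness was measured by the root mean square difference over the 8 arrays between log2 levels, each less its own mean. Itgb8, an integrin subunit that activates latent TGF-beta, was closest to both Gpr83 (0.308) and Gpr15 (0.235), and the chemokine receptor Ccr6 was second for Gpr83 (0.339) and first for Gpr34 (0.557). Itgb8 stood at 5.61, 5.88 and 5.7 in delta EGFP-positive cells and at 7.47, 8.55 and 7.13 in WT EGFP-positive cells, beside 5.48 in delta EGFP-negative and 4.67 in WT EGFP-negative cells. Like the receptors, Itgb8 and Ccr6 were highest in WT EGFP-positive replicate 2. For Gpr34 the second was Cyp4f18 (0.568), a cytochrome P450 gene, and for Gpr15 it was Sh3bgrl2 (0.331). Gpr171 was matched by a probe set of the T cell receptor gamma segment Trgv4 (0.246), of a type that can also detect related segments, and by Dpy19l1 (0.282). Vipr1 was matched by Enc1 (0.256) and by Igfbp4 (0.262), which encodes a binding protein of insulin-like growth factors and stood at 10.57, 10.07 and 10.58 in delta EGFP-positive and at 10.79, 10.73 and 10.86 in WT EGFP-positive cells, against 12.11 in delta EGFP-negative and 12.82 in WT EGFP-negative cells.

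**Figure D4:**
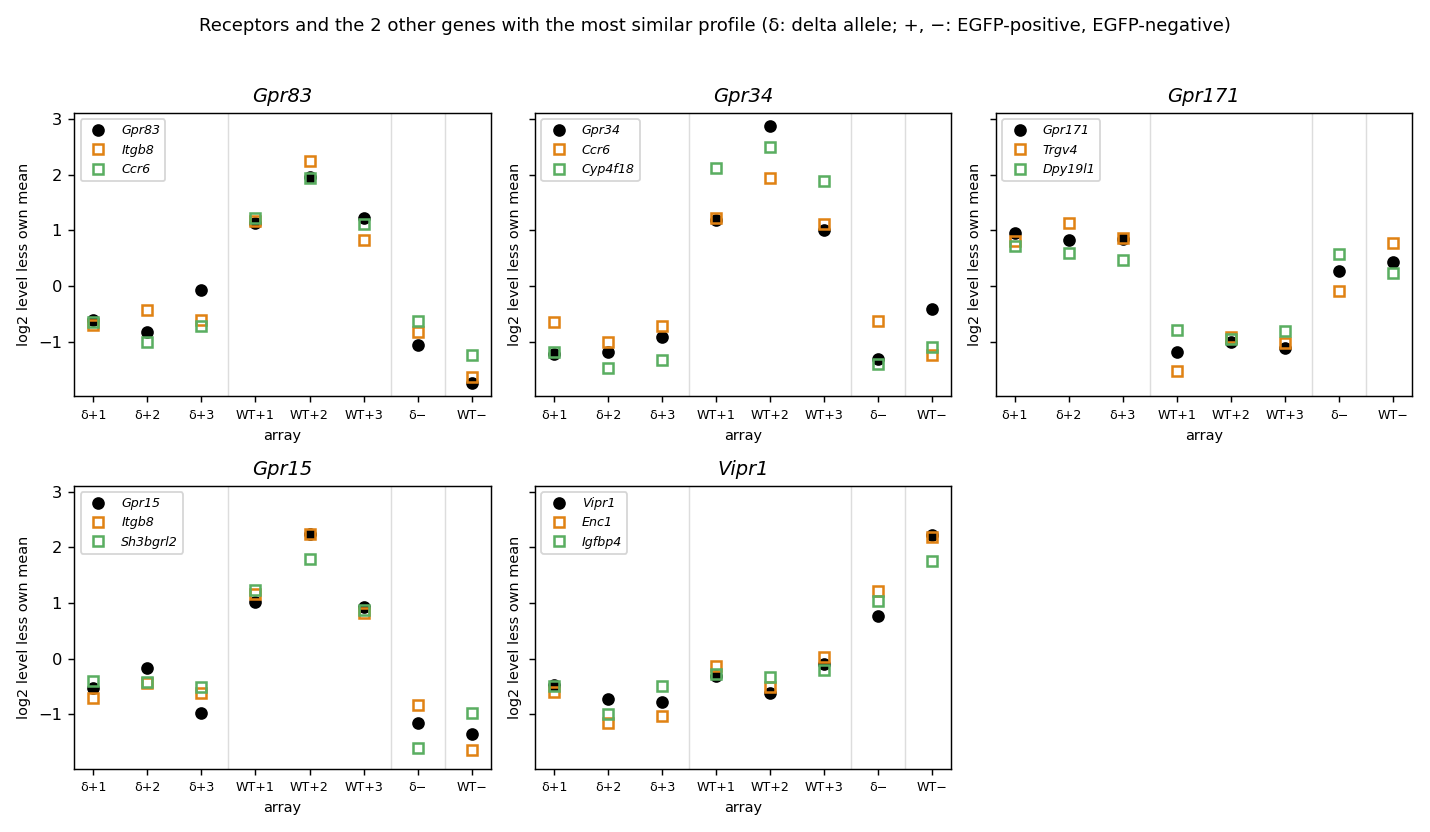
Log2 level less the gene's own mean over the 8 arrays (y axis) on each array (x axis) for 5 receptors (black) and the 2 genes with the smallest root mean square difference from each (open squares). Itgb8 lies close to Gpr83 and Gpr15, with the highest value of all 3 genes on WT EGFP-positive replicate 2.

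Genes around these receptors were read from 4 lists of which no gene is a member, each gene by its brightest probe set. The fit's adjusted p-values are given here. The lists were also chosen with earlier results of these arrays known, so these p-values describe the genes and are not independent tests. In delta against WT EGFP-positive cells, where 16.5% of all genes passed, 7 of 30 measured other receptors passed, 2 higher and 5 lower (median difference -0.05, against 0.02 over all genes). That count of 7 was 4 without WT EGFP-positive replicate 1, and 12 without WT EGFP-positive replicate 2 and delta EGFP-positive replicate 3. S1pr1, the sphingosine 1-phosphate receptor that lets T cells leave lymph nodes, was at 9.05, 9.27 and 9.93 in delta and 10.87, 11.05 and 10.94 in WT EGFP-positive cells, and it fell 2.9-fold (difference -1.53, SE 0.22, limma adjusted p = 0.0037). Gpr146 (-1.18, adjusted p = 0.00077) and Gpr155 (-1.13, adjusted p = 0.012) also fell in that limma fit, and a further probe set of Gpr146 differed by only -0.11. Ltb4r1, the receptor of leukotriene B4, rose 2.44-fold (7.63 ± 0.35 in delta against 6.34 ± 0.19 in WT EGFP-positive cells, SD, n = 3 each; limma adjusted p = 0.0046). Of these 30 receptors 0 passed in the comparison of WT EGFP-positive with WT EGFP-negative cells, where 1.5% of genes did. The closest were Gpr160 (1.04, limma adjusted p = 0.15) and Gpr174 (0.86, 0.17), 7 of the 30 had an unadjusted p under 0.05, and 2 passed without WT EGFP-positive replicate 2.

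The ecto-enzymes that turn extracellular ATP into adenosine, the ligands of P2rx7 and Adora2a, parted between the alleles. Entpd1 (CD39), which degrades ATP, rose 2.82-fold: it stood at 9.05, 9.36 and 9.27 in delta EGFP-positive cells, against 7.59, 8.06 and 7.53 in WT EGFP-positive cells (difference 1.5, SE 0.17, limma adjusted p = 0.0014). Nt5e (CD73), which makes adenosine, fell 2.8-fold: it stood at 8.75, 8.24 and 8.48 in delta EGFP-positive cells, against 9.8, 10.23 and 9.9 in WT EGFP-positive cells (difference -1.49, SE 0.17, limma adjusted p = 0.0015). Neither pair of groups overlapped. Further probe sets gave 1.54 to 1.62 for Entpd1 but -0.9 to 0.19 for Nt5e. Within the wild-type allele both rose in the EGFP-positive gate, Nt5e 7.52-fold (9.98 ± 0.22 in WT EGFP-positive cells, SD, n = 3, against 7.07 in the WT EGFP-negative array; limma adjusted p = 0.0028) and Entpd1 by 2.14 (7.73 ± 0.29 against 5.59; 0.008). Further probe sets gave smaller values there, -0.05 to 1.62 for Nt5e and 1.43 to 1.59 for Entpd1. Within delta, Entpd1 differed by 1.25 (limma adjusted p = 0.16) and Nt5e by -0.07, and the interaction of Nt5e was -2.98 (limma adjusted p = 0.055, and 0.02 to 0.31 over the alternatives). It passed without WT EGFP-positive replicate 2, and the further probe sets gave -1.36 to -0.07.

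Of the 25 measured purine genes, 6 passed in delta against WT EGFP-positive cells, where 16.5% of all genes did. There 4 rose, Entpd1 and Adk among them, and 2 fell (Nt5e and P2rx4), with a median of -0.02. Adk, the kinase that clears adenosine inside cells, differed by 0.75 (limma adjusted p = 0.033, with alternatives from 0.0029 to 0.12). That call was lost without delta EGFP-positive replicate 1 or 2 or WT EGFP-positive replicate 1 or 3. Its further probe sets ran between -0.36 and 0.7. P2rx4, another ATP-gated channel, differed by -0.69 (limma adjusted p = 0.016; 0.013 to 0.069), with the call lost without delta EGFP-positive replicate 1 or 2. The list's count of 6 was 3 without delta EGFP-positive replicate 1, 2 without delta EGFP-positive replicate 2 and 3 without WT EGFP-positive replicate 1.

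Among 43 measured G protein and cyclic AMP genes, 3 rose and 5 fell in delta EGFP-positive cells, with a median of -0.08, beside 16.5% of all genes, a share close to that of the list. Gng2, a G protein gamma subunit, rose 3.48-fold (9.82 ± 0.15 against 8.02 ± 0.12 in WT, SD, n = 3 each; limma adjusted p = 0.00021), with 1.26 to 1.38 from its other probe sets, and Prkar2a, a regulatory subunit of protein kinase A, rose 2.39-fold (limma adjusted p = 0.00055), with 0.02 to 1.01 from its others. Arrb1, an arrestin that ends receptor signalling, fell 2.64-fold (6.24 ± 0.1 against 7.64 ± 0.3 in WT; limma adjusted p = 0.0016), and Rgs14, which speeds up the inactivation of G alpha subunits, fell 2.33-fold (limma adjusted p = 0.0019). The list's 8 calls became 13 without WT EGFP-positive replicate 2 and 16 without that array and delta EGFP-positive replicate 3. In WT EGFP-positive against WT EGFP-negative cells 1 of the 43 passed: Rgs1, another inactivator of G proteins, rose 11.9-fold (12.32, 11.71 and 12.24 against 8.52; limma adjusted p = 0.0044), and that count was 5 without WT EGFP-positive replicate 2. Rgs1 stood at 12.45, 12.47 and 11.78 in delta EGFP-positive cells, against 10.84 in delta EGFP-negative cells.

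Of 13 measured genes for ligands or the enzymes that make or clear them, 1 rose in delta EGFP-positive cells, the opioid precursor Penk (difference 2.79, limma adjusted p = 0.00022), whose receptors are no members; without WT EGFP-positive replicate 2 the count was 2. Penk stood at 12.07 ± 0.23 in delta and at 9.28 ± 0.34 in WT EGFP-positive cells (SD, n = 3 each). The delta EGFP-negative array read 10.79, above every WT EGFP-positive array (9.05 to 9.67), and delta EGFP-positive cells were 1.28 above it. Against the WT EGFP-negative array, at 6.76, Penk rose 5.73-fold in WT EGFP-positive cells (difference 2.52, SE 0.28, limma adjusted p = 0.0077), the only call of the list in that comparison, where 1.5% of all genes passed. With all arrays, no other gene of this list passed in any of the 4 tests. Entpd1, Nt5e and Adk, which act on the ligands of P2rx7 and Adora2a and passed above, were counted with the purine genes. Ptges, a prostaglandin E synthase, stood at 5.8 to 6.01 in delta EGFP-positive and at 5.9 to 6.08 in WT EGFP-positive cells, against 5.43 in delta EGFP-negative and 5.8 in WT EGFP-negative cells. Within delta it differed by 0.5, and its further probe sets gave -0.29 to 0.2. Within the delta allele none of the genes of the 4 lists passed, where 0.0879% of all genes did, and none passed in the interaction, where 0.066% did. At an unadjusted p under 0.05 there were 6 other receptors, 4 purine genes, 2 ligand genes and 7 G protein or cyclic AMP genes within delta, and 4, 4, 1 and 5 in the interaction. Within delta the smallest adjusted p was that of Cnr2, a cannabinoid receptor, Gpr146 and Entpd1 (limma adjusted p = 0.16 each). Without WT EGFP-positive replicate 2 and delta EGFP-positive replicate 3, 1 other receptor, 1 purine gene and 4 G protein or cyclic AMP genes passed there.

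**Figure D5:**
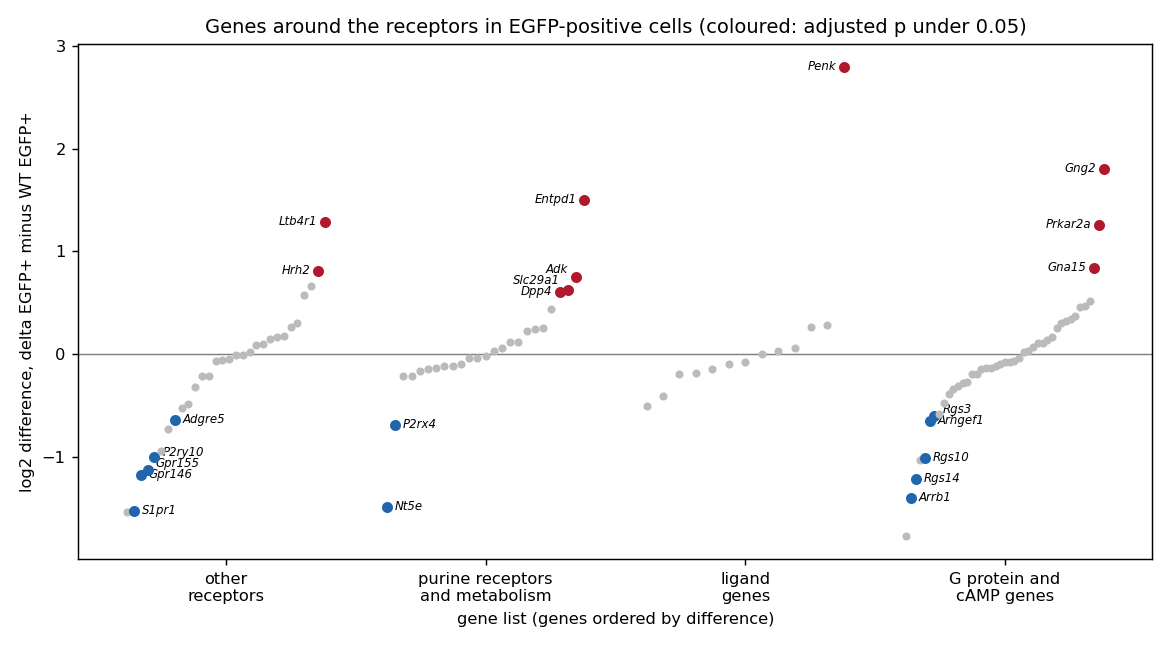
Log2 difference of delta EGFP-positive minus WT EGFP-positive cells (y axis) for each gene of 4 lists around the receptors (x axis, ordered by difference within a list); coloured and named genes passed an adjusted p of 0.05 in limma over all probe sets, grey ones did not. Entpd1 lies at 1.5 and Nt5e at -1.49, and 22 genes are coloured.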

How the data were processed

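The 8 arrays measured total RNA of sorted cells, and their deposited intensity values are linear and were normalized by the authors with RMA, per the labels; CEL files and array dates were not used here. Of 45101 probe sets, 64 controls were left out. The deposited values were taken to log2 with no pseudocount and fitted over all 8 arrays by group with limma 3.58.1 in R 4.3.3 (lmFit, eBayes; 4 residual and 3.72 prior degrees of freedom), with Benjamini-Hochberg adjustment over 45037 probe sets and a threshold of 0.05. The 4 tests were delta against WT in EGFP-positive cells, EGFP-positive against EGFP-negative within each allele, and their interaction. EGFP-negative cells had 1 array per allele, which the fit assumes to vary like the replicated groups. The number of arrays limits precision: an exact permutation test of 3 against 3 cannot go below 0.1. Genes come from GEO's platform annotation: 34945 probe sets have 1 symbol, 932 several and 9160 none. Folds are given only where both group means exceed the median probe set mean (5.76). Genes named from a list are, per comparison, up to 4 calls by size of the difference, or up to 2 with the smallest p where none passed. The fit was tested on simulated data. The members and lists were chosen with earlier results of these data known. Alternatives were a replicate block, a filter on dim probe sets, a pseudocount of 16, repeated quantile normalization, a trended robust fit, and left-out arrays.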

Additional observations from a re-analysis of the deposited data

Results flagged for a closer look

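Gpr171 stood out because its difference between EGFP-positive and EGFP-negative cells had opposite signs in the alleles, 0.6 within delta and -1.54 within WT, and the test of that difference passed in limma (2.14, SE 0.22). The EGFP-negative side of each rests on 1 array (7.94 in delta, 8.11 in WT). The call was lost in 8 of 12 alternatives, while the value stayed between 1.97 and 2.21. Since Gpr171 was chosen from these levels, the value is a description. Signs were also opposite for Gpr65 (0.28 within delta, -0.59 within WT) and for each P2rx7 probe set. The difference between the EGFP differences was as large in size for Gpr83 (-2.62, and -2.18 with its other probe set) and Gpr15 (-2.15). None of these passed with all arrays. Both Gpr83 probe sets did without WT EGFP-positive replicate 2 and delta EGFP-positive replicate 3.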

How the results depend on the processing

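No direction of a called value reversed under the alternatives. For delta against WT EGFP-positive cells, 5734 probe sets passed and leaving out 1 array gave 3355 to 7556, and 7972 passed without WT EGFP-positive replicate 2 and delta EGFP-positive replicate 3; the 5 member calls were 3 among probe sets above the median level, which leaves out Gpr34 and Gpr15. For WT EGFP-positive against WT EGFP-negative cells, 496 passed, with 259 to 1193 when 1 array was left out and 1845 without both of those arrays; the 6 member calls ran from 5 to 8 when 1 array was left out. Within delta, 34 passed, with 17 above the median level, 64 with a trended robust fit, 4 to 84 when 1 array was left out and 325 without both arrays; the 0 member calls became 0 to 1 and 1. For the interaction, 18 passed, with 3 above the median level, 4 with a pseudocount of 16, 55 with the trended robust fit, 2 to 85 when 1 array was left out and 171 without both arrays; the 1 member call became 0 above the median level, 0 with the pseudocount, 0 to 1 with 1 array left out and 3 without both. Both EGFP-negative arrays carry title numbers of the same run as replicate 1 of each EGFP-positive group. EGFP status and run are thus partly confounded. With the run of title numbers as a replicate block the 4 counts were 4706, 83, 1 and 0. The member calls of WT EGFP-positive against WT EGFP-negative cells and of the interaction were then 0 and 0. In WT EGFP-positive against WT EGFP-negative cells that block also ended the calls of Nt5e (limma adjusted p = 0.061), Entpd1 (0.061) and Rgs1 (0.055), but not that of Penk. Same-numbered EGFP-positive arrays deviated together by correlations of 0.121, 0.0457 and -0.102 over all probe sets. The labels do not say what a number run marks, and these correlations cannot show an effect limited to some genes. The cause of these shifts was not tested. Of 719 member differences under the alternatives, 694 moved by less than 1 SD and 25 by more. Both EGFP-negative groups hold 1 array, and dim probe sets (Gpr34, Gpr15, Vipr1) limit what a difference can show.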
